A study of Mus musculus with 2 samples.

Results

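The levels of 41 genes were measured in cells of the dentate gyrus of young mice: the subunits of the ionotropic glutamate receptors (AMPA, kainate and NMDA), the metabotropic glutamate receptors, the GABA-A and GABA-B receptors, and the chloride transporters Slc12a2 and Slc12a5. They were picked by gene symbol, by a rule that uses no measured value, and are 41 of the 32285 genes in the deposited count matrix. Single cells of the dentate gyrus were profiled at postnatal day 30 with the 10x Genomics 3′ v3.1 droplet assay, in which transcripts are primed at their 3′ ends and counted by cell barcode and unique molecular identifier (UMI). The labels describe 2 samples. The control mice were wild type for the floxed gene (Nestin-Cre Tg, Phf2+/+) and the conditional knockouts (cKO) were Nestin-Cre Tg, Phf2flox/flox, with 4 mice of each genotype. Both groups carried the transgene of the line B6.Cg-Tg(Nes-cre)1Kln/J, so that deletion of Phf2 was limited to cells in which the Nestin-driven Cre had acted and to their descendants. Tissue was dissociated enzymatically after perfusion with saline, and the cells that survived this step are the cells described.

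Glutamate opens AMPA, kainate and NMDA receptor channels, which carry excitatory current, and it also activates metabotropic receptors that signal through G proteins. GABA-A receptors are chloride channels, usually built of alpha, beta and gamma or delta subunits, whereas GABA-B receptors are obligate pairs of Gabbr1 and Gabbr2 that signal through G proteins. Whether GABA depolarises or inhibits a cell depends on its chloride, which the importer NKCC1 (Slc12a2) raises and the exporter KCC2 (Slc12a5) lowers. In the dentate gyrus, radial glia-like stem cells (RGL) give rise to neuronal intermediate progenitors (nIPC), neuroblasts and granule neurons, and GABA excites the young cells of this lineage before it inhibits the mature ones.

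The matrix held barcodes with the suffix 1 or 2, called library 1 and library 2 here, and nothing in the labels or barcodes tied a suffix to a genotype. No genotype comparison was therefore made. Pairs of values below are library 1 first, then library 2. The libraries held 102897659 and 107266420 UMIs. After filtering, 8025 and 8121 cells remained, with medians of 8080 and 7227 UMIs per cell, and 22 cell barcodes occurred in both libraries. The targeted gene, Phf2, stood at 16.3 and 13.3 CPM in RGL-like cells, 25.1 and 12.9 CPM in nIPC-like cells and 22.2 and 22.2 CPM in microglia-like cells. Those 3′ tags need not lie in the deleted part of Phf2 and were not used to assign a genotype. Differences between classes were tested over both libraries, with library as a block. Nothing says that cells of single mice can be told apart, so the p-values do not measure the spread between single mice. The p-values rest on how differences between classes varied between these libraries, pooled over all classes in the fit. The library difference shared by the classes was removed by the block.

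Cells were clustered without the 41 genes and named from marker genes, none of them among the 41, which is what "RGL-like" and similar names mean. A check of each name used the 10 leading genes of the cluster, and these were ranked over all genes, the 41 included. There were 18 such classes, from 2917 and 2468 microglia-like cells to 25 and 56 oligodendrocyte precursor-like (OPC-like) cells. The granule neuron-like class was also small, with 49 and 106 cells. Its summed granule neuron markers stood at 9397 and 9389 CPM (UMI counts of a class and library scaled to a common total), against 1533 and 1534 CPM in neuroblast-like cells. Summed astrocyte markers reached 13920 and 14949 CPM in astrocyte-like cells and 6297 and 5818 CPM in RGL-like cells, while summed RGL markers stood at 1981 and 2258 CPM against 4774 and 4799 CPM. Of the names, 2 need care. The OPC-like cells came from a cluster of 68 and 111 cells with markers of both OPC and committed precursors (COP), which was divided at a finer resolution after the data were seen. The nIPC-like class joined cluster 0 (340 and 276 cells) and cluster 16 (134 and 135 cells). Of the 10 leading genes of cluster 0, 3 were nIPC markers and 4 were neuroblast markers. Its nIPC and neuroblast scores were 2.57 and 2.42, so values are also given per cluster. CPM was computed over all UMIs of a class in a library. Because the assay counts 3′ ends, levels are compared between classes and not between genes, and a share of a family's UMIs describes the counted tags. Free RNA, estimated from barcodes with fewer than 100 UMIs, made up 0.205% to 2.02% of the UMIs of a class, and subtracting it left each of the 112 calls of these genes below on its side of the threshold.

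Several of the genes lie side by side in the mouse genome (GRCm38). On chromosome 5 these are Gabrg1, Gabra2, Gabra4 and Gabrb1, and on chromosome 7 Gabrg3 and Gabra5. Gabra4 (chromosome 5, 71569749 to 71658308, reverse strand) and Gabrb1 (71658113 to 72149037, forward strand) start 195 bp apart and overlap at their 5′ ends on opposite strands. Gabra5 is likewise overlapped on the opposite strand, and Grin1 is overlapped by Grin1os. The sources used here do not state whether reads were assigned by strand, so reads shared by such partners may not be separated. Sequence upstream of the starts of Gabra4 and Gabrb1 is shown because this adjacent pair was called in the same direction in 3 of the 5 comparisons below, and that of Slc12a5 (chromosome 2, 164960802 to 164999731, forward strand) because its level separated granule neuron-like cells from all other classes. The sequences are from RefSeq promoter windows (GRCm38.p6), run 5′ to 3′ on the gene's strand, leave out annotated untranslated regions, and mark in capitals GC boxes (GGGCGG, either strand) for Gabra4 and Gabrb1 and an E-box (CAGNTG, either strand) for Slc12a5.
Gabra4 (chr5:71658364-71658558, reverse strand): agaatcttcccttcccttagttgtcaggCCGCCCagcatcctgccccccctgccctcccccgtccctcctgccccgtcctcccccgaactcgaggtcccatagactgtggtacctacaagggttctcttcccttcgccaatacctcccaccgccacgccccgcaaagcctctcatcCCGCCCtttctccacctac
Gabrb1 (chr5:71657671-71657809, forward strand): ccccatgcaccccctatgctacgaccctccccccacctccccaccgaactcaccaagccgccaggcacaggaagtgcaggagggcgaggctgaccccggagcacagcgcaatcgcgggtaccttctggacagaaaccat
Slc12a5 (chr2:164960596-164960801, forward strand): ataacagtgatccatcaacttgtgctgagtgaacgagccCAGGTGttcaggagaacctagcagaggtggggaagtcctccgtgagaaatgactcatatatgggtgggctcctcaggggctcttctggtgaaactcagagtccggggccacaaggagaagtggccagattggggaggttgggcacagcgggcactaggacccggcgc
The Gabra4 stretch of 195 bases held 2 GC boxes, the Gabrb1 stretch of 139 bases held 0, and the Slc12a5 stretch of 206 bases held 1 E-box. The Gabra4 stretch lies inside the Gabrb1 gene and the Gabrb1 stretch inside the Gabra4 gene. Coding sequence was not left out of the stretches, so the GC box counts of this pair do not compare 2 separate promoters. RefSeq windows of 300 bases matched 27 of the 41 genes, some with several starts, giving 35 windows. A GC box was present in 18 of these 35, against 35.7% of all 32851 windows, and an E-box in 10, against 51.4%. The motif GCGC, any 2 bases, GCGC, as in NRF1 sites, was present in 4 (Gabbr2, Gabrb1, Gria2 and Gria4), against 6.225% of all windows, and TTCAGCACC, the left arm of the REST element, in 1 (Grm2), against 0.371%. These matches describe the letters only and are not evidence of binding.

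Of the 41 genes, 39 had at least 20 UMIs over all named classes, while Gabra6, known from cerebellar granule cells, had 0 and Grm6, known from retinal bipolar cells, had 3. The summed level of all 41 was highest in granule neuron-like cells, at 6882 and 6639 CPM, followed by OPC-like cells at 3421 and 3648 CPM. Astrocyte-like cells (2641 and 2911 CPM), RGL-like cells (2369 and 2409 CPM) and neuroblast-like cells (2267 and 2289 CPM) came next. The nIPC-like class had 1029 and 991 CPM, and cycling cells 500.1 and 539.7 CPM, while microglia-like cells had 216 and 255 CPM and endothelial-like cells 84.7 and 114 CPM. Among the 39 genes, 32 had the same highest class in both libraries. That class was granule neuron-like for 18, OPC-like for 7, astrocyte-like for 3 (Grm3, Gabrg1 and Grin2c), RGL-like for 2 (Gabrb1 and Gabrg3), COP-like for Grik2 and oligodendrocyte-like for Slc12a2. On the map of levels, Gria2, Gabbr1 and Slc12a2 had UMIs in both libraries in all 18 classes. Gria2 was a small part of the sum in microglia-like cells, with 99 and 142 of 5378 and 4688 UMIs.

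**Figure D1:**
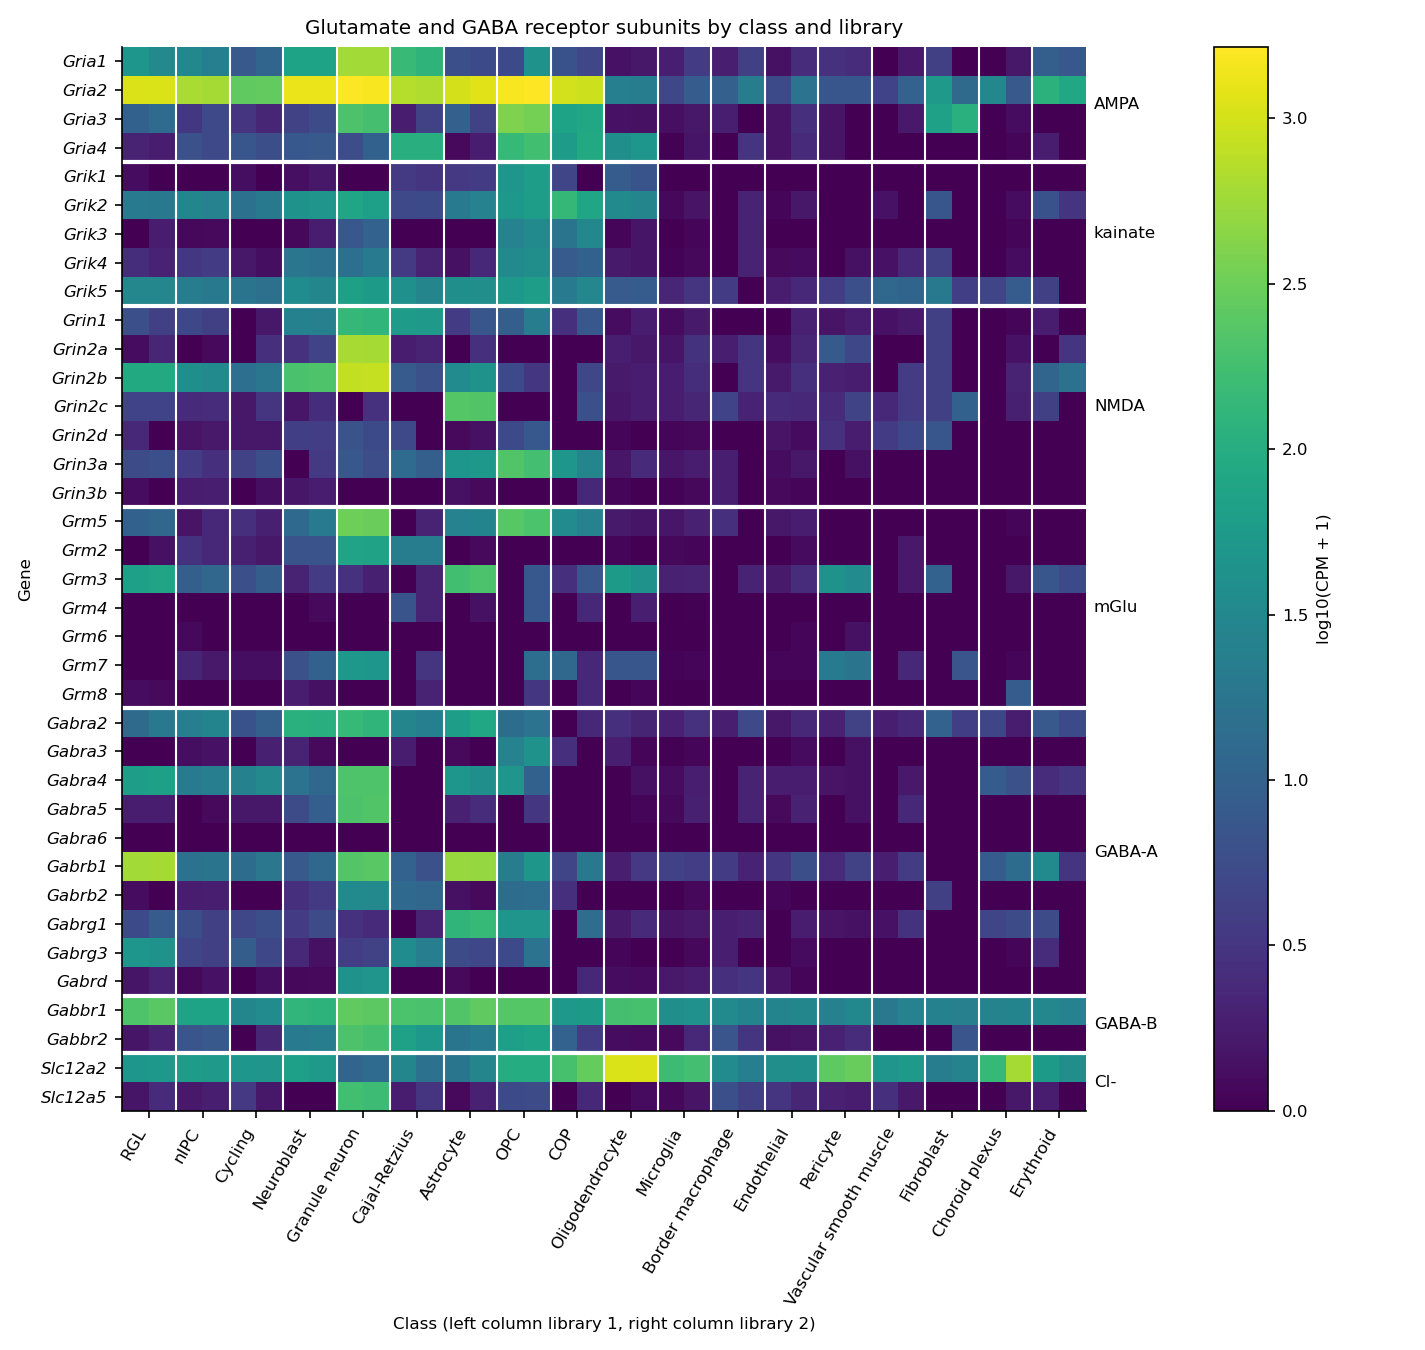
Levels of 37 of the 41 genes (rows, grouped by receptor family; Cl- marks the chloride transporters) in 18 classes (columns; library 1 left, library 2 right), as log10(CPM + 1) on the colour scale. The granule neuron-like columns are bright in most families, at a summed 6882 and 6639 CPM, while Grin2c and Gabrg1 stand out in astrocyte-like cells and Slc12a2 in oligodendrocyte-like cells.

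Differences between classes were tested for the 36 genes that passed the filter on low counts, in one edgeR fit of 14847 genes over 8 neural classes, and a call means an edgeR adjusted p under 0.05. Grm4, Grm6, Grm8, Grin3b and Gabra6 were not tested. From RGL-like to nIPC-like cells, 7 of the 36 were higher and 15 lower, against 29.0% and 29.5% of all genes tested. From nIPC-like to neuroblast-like cells, 18 were higher and 4 lower, against 15.7% and 17.2%. From neuroblast-like to granule neuron-like cells, 25 were higher and 1 lower, against 25.6% and 28.0%. In astrocyte-like against RGL-like cells 11 were higher and 4 lower, against 18.6% and 18.5%, and in oligodendrocyte-like against OPC-like cells 3 were higher and 24 lower, against 23.3% and 19.8%. The median log2 differences of the 36 in these comparisons were -0.69, 1.23, 2.09, 0.09 and -3.97, against -0.01, -0.01, -0.12, -0.02 and 0.10 over all genes. With genes absent from 1 class set at their bound, the same medians were -0.68, 0.87, 2.09, 0.07 and -3.97. The sign of the difference was the same in both libraries for 21 of 22, 22 of 22, 26 of 26, 15 of 15 and 26 of 27 calls. The calls were made from these same libraries, so this count describes them and adds no support. Consecutive comparisons share a class, so their counts are not independent. Genes whose library values are said below not to overlap between classes were mostly picked by a small adjusted p. That they do not overlap therefore adds no support to their calls.

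Scaling to total counts in place of TMM moved the median of all genes to 0.13, -0.10, -0.12, -0.33 and -0.74. Over all genes, higher and lower calls then stood at 1895 and 3118 instead of 2336 and 2547 for neuroblast-like against nIPC-like cells. They stood at 1794 and 5257 instead of 2765 and 2744 for astrocyte-like against RGL-like cells, and at 1274 and 5872 instead of 3453 and 2935 for oligodendrocyte-like against OPC-like cells. The 36 genes then gave 18 higher and 5 lower, 9 higher and 6 lower, and 2 higher and 25 lower. TMM factors were 0.716 and 0.720 in oligodendrocyte-like cells and 1.42 and 1.31 in OPC-like cells. The log2 differences of that comparison are therefore shifted upward from the ratios of the CPM printed beside them.

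**Figure D2:**
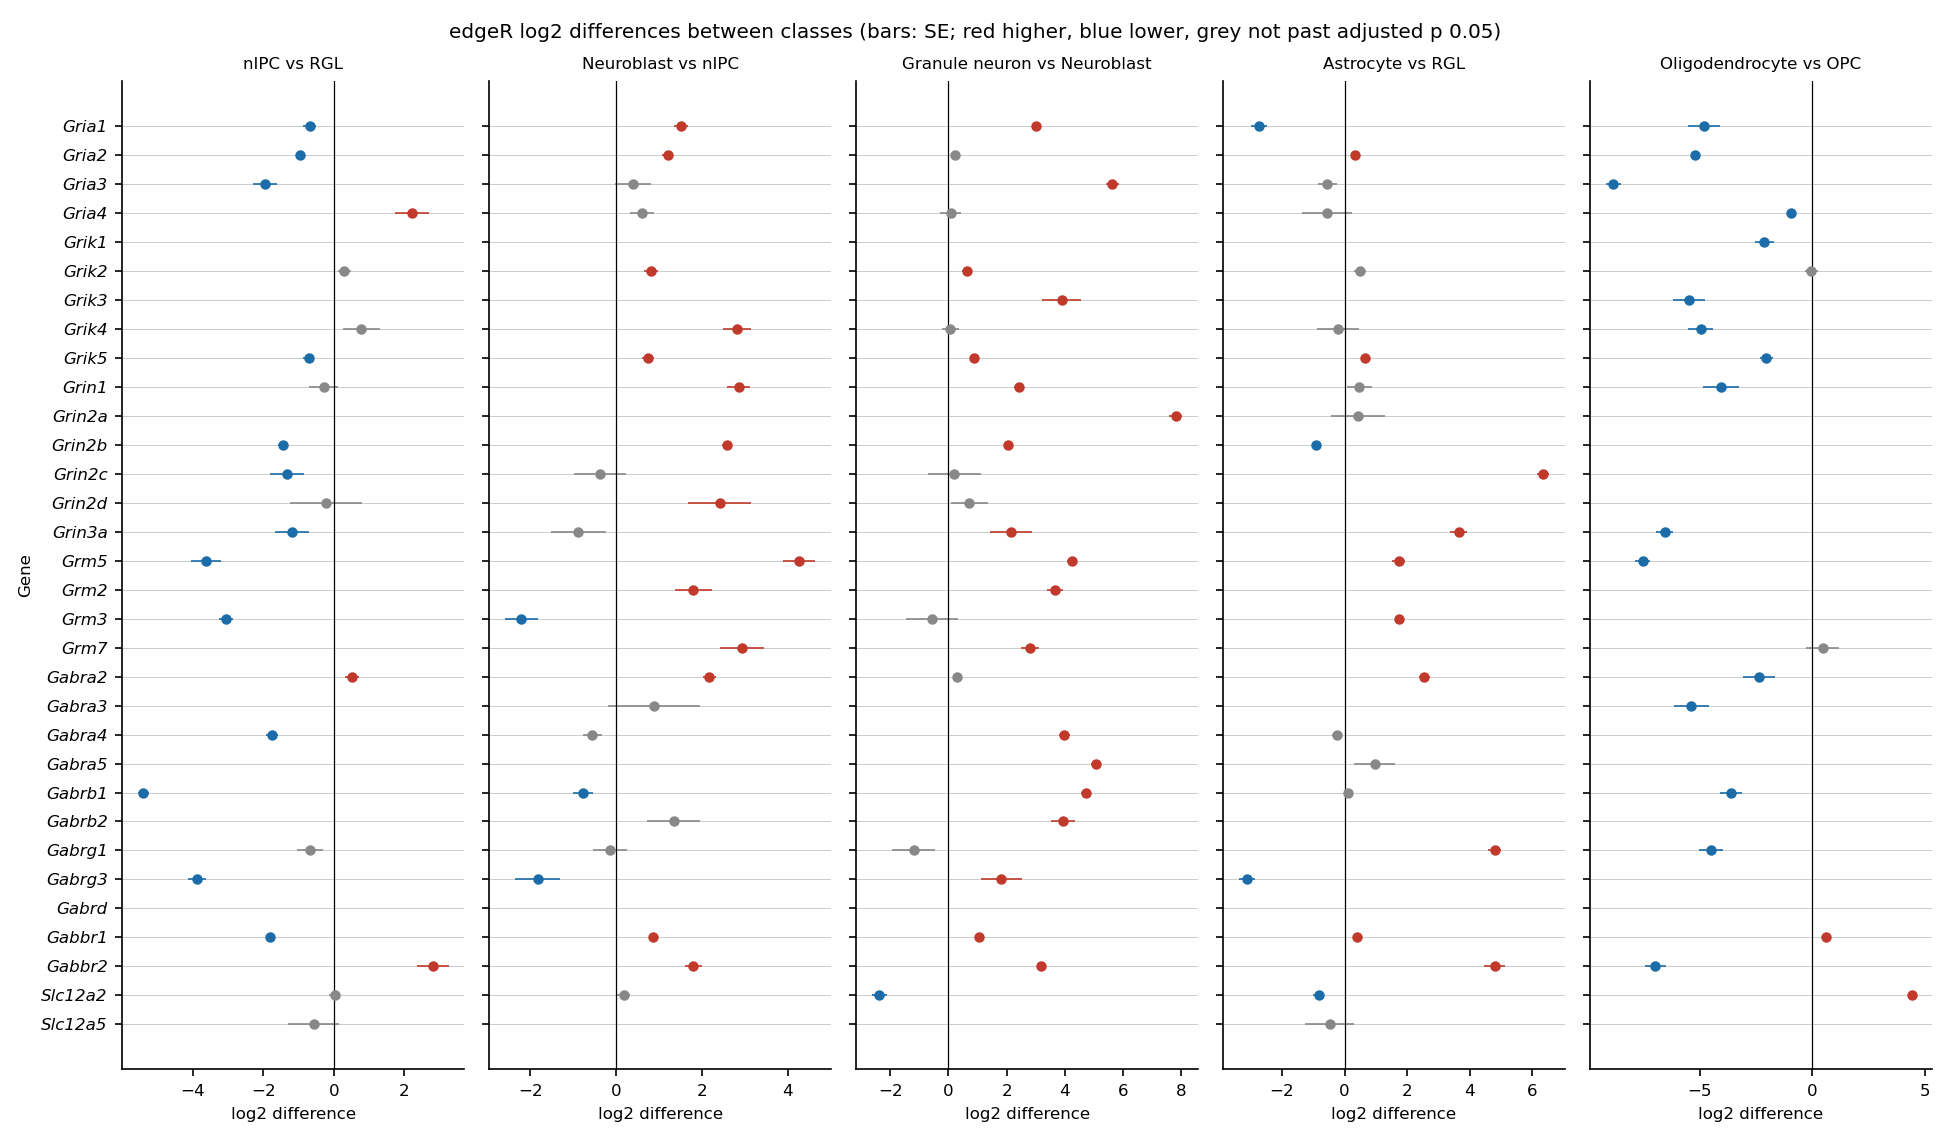
edgeR log2 differences (points) with SE (bars) in the 5 comparisons, 1 row per gene, for genes with more than 3 UMIs in each class of a comparison; red is higher, blue lower and grey not past an adjusted p of 0.05. The panels draw 23, 26, 28, 24 and 20 of 32 genes from left to right. Points lie mostly to the right of 0 for granule neuron-like against neuroblast-like cells and to the left for oligodendrocyte-like against OPC-like cells.

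By number of calls, the largest set of differences along the lineage lay between neuroblast-like and granule neuron-like cells. Of the 36 genes, 25 were higher and 1 lower, against 25.6% and 28.0% of all genes tested. From nIPC-like to neuroblast-like cells, where 18 were higher and 4 lower, the shares over all genes were smaller, at 15.7% and 17.2%. Of the AMPA subunits, Gria1 (GluA1) stood at 588 and 590.3 CPM in granule neuron-like cells and at 72.7 and 73.2 CPM in neuroblast-like cells (log2 difference 3.01 ± 0.14 (SE), edgeR adjusted p = 2.06e-16). Gria3 stood at 206 and 184 CPM against 3.18 and 4.53 CPM (log2 difference 5.64 ± 0.22 (SE), edgeR adjusted p = 5.41e-18). Gria2, whose edited subunit makes AMPA receptors impermeable to calcium, was already abundant in neuroblast-like cells at 1341 and 1337 CPM, and its 1642 and 1518 CPM in granule neuron-like cells did not pass the test (log2 difference 0.23 ± 0.12 (SE), edgeR adjusted p = 0.125). The share of AMPA subunit UMIs held by Gria1 was 24.1% and 25.7% in granule neuron-like cells against 5.11% and 5.15% in neuroblast-like cells. With DESeq2 the difference of Gria2 passed (0.33, adjusted p = 8.67e-04), as it did in 4 other alternatives. Of the kainate subunits, Grik2, Grik3 and Grik5 were higher in granule neuron-like cells (log2 differences 0.63 ± 0.17, 3.89 ± 0.67 and 0.90 ± 0.16), whereas Grik4 had 0.06 ± 0.29 and did not pass. The call of Grik2 was lost without library 1 (log2 difference 0.52, edgeR adjusted p = 0.0798).

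Among the NMDA subunits, Grin2a (GluN2A), the subunit of mature synapses, showed a sharp contrast. It stood at 629.7 and 598 CPM in granule neuron-like cells and at 1.87 and 3.50 CPM in neuroblast-like cells (log2 difference 7.82 ± 0.22 (SE), edgeR adjusted p = 4.39e-20), with no overlap between the classes. Grin2b (GluN2B), the juvenile partner, stood at 840.2 and 851 CPM against 196 and 214 CPM (log2 difference 2.04 ± 0.10 (SE), edgeR adjusted p = 7.70e-16). The obligate subunit Grin1 was higher by 2.44 ± 0.17 on the log2 scale, at 139 and 129.6 CPM against 24.7 and 24.1 CPM. Grin2a held 42.7% and 41.1% of GluN2 UMIs in granule neuron-like cells (95% intervals 40.2 to 45.2% and 39.3 to 42.8%). In neuroblast-like cells its share was 0.928% and 1.58% (95% intervals 0.446 to 1.7% and 0.922 to 2.52%). Grin2b held 56.9% and 58.5% of GluN2 UMIs in granule neuron-like cells and 97.3% and 96.4% in neuroblast-like cells. Grin3a was higher in granule neuron-like cells by 2.14 ± 0.72, a call that was lost without library 1 (0.95, edgeR adjusted p = 0.293), and Grin2c and Grin2d did not pass.

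The metabotropic receptor Grm5, which belongs to group I and couples to Gq, was also higher in granule neuron-like cells. It stood at 316 and 298 CPM against 11.6 and 21 CPM in neuroblast-like cells (log2 difference 4.23 ± 0.16 (SE), edgeR adjusted p = 1.29e-18). Its levels did not overlap between the classes. Of the receptors that couple to Gi, Grm2 was higher by 3.66 ± 0.29 and Grm7 by 2.81 ± 0.32, while Grm3, largely a glial gene here, had -0.57 ± 0.89 and did not pass.

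Among the GABA-A genes, alpha, beta, gamma and delta subunits were all represented in the calls. Gabra5, an extrasynaptic alpha subunit of hippocampal neurons, stood at 206 and 217 CPM against 4.48 and 8.04 CPM (log2 difference 5.07 ± 0.18 (SE), edgeR adjusted p = 1.00e-18), and Gabra4 at 214 and 216 CPM against 15.7 and 11.1 CPM (log2 difference 3.99 ± 0.19 (SE), edgeR adjusted p = 4.24e-16). Gabra2 was an exception, with 143 and 124 CPM against 109 and 101 CPM (log2 difference 0.30 ± 0.14 (SE), edgeR adjusted p = 0.0775), which did not pass. Its call passed in 4 alternatives, one of them Leiden resolution 2 (0.37, edgeR adjusted p = 0.0232). Gabrd, the delta subunit of tonic GABA-A receptors in granule cells, had 143 UMIs in granule neuron-like and 2 in neuroblast-like cells, a ratio of 228 (95% interval 62.0 to 1902). Its level in granule neuron-like cells was 42.1 and 46.0 CPM. Gabrb1 stood at 224 and 247 CPM against 6.91 and 10.7 CPM (log2 difference 4.74 ± 0.18 (SE), edgeR adjusted p = 1.75e-18), and Gabrb2 was higher by 3.94 ± 0.41. Gabrg3 was higher by 1.82 ± 0.70, which was lost without library 2 (1.01, edgeR adjusted p = 0.531). Gabrg1 and Gabra3 did not pass.

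Shares showed the same alpha pattern on the scale of the family. Gabra2 held 83.5% and 83.7% of alpha UMIs in neuroblast-like cells, and 20.2% and 17.7% in granule neuron-like cells. There Gabra4 held 30.3% and 30.7% and Gabra5 29.1% and 30.9%. Gabrb1 held 39.97% and 41.6% of beta UMIs in granule neuron-like cells against 8.08% and 11.0% in neuroblast-like cells.

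**Figure D3:**
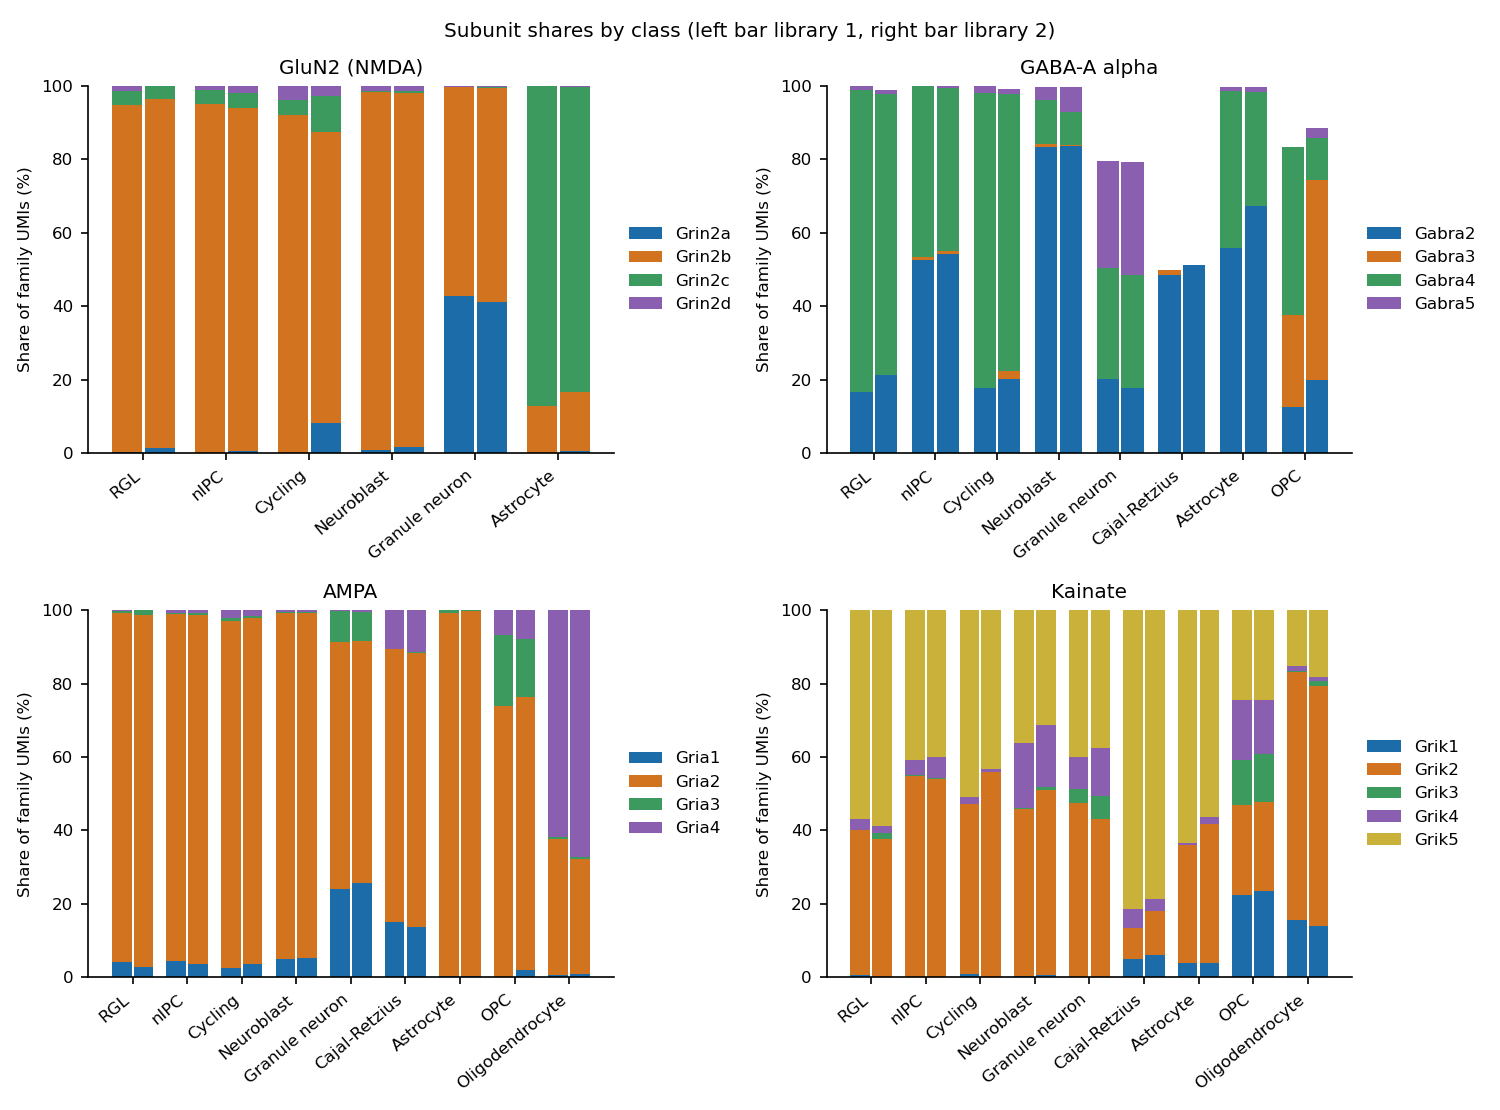
Share of the UMIs of a family (vertical axis, %) held by each subunit, by class (horizontal axis; left bar library 1, right bar library 2), for GluN2, GABA-A alpha, AMPA and kainate subunits in classes with at least 20 UMIs of the family in each library. Alpha bars end below 100% because not every alpha subunit is drawn. Grin2a is a large part of GluN2 in granule neuron-like cells (42.7% and 41.1%) and Grin2c in astrocyte-like cells (87.0% and 83.3%), and the Gria1 part of the AMPA bar is larger in granule neuron-like cells (24.1% and 25.7%) than in neuroblast-like cells (5.11% and 5.15%).

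The GABA-B subunit Gabbr2 stood at 209 and 185 CPM in granule neuron-like cells against 20.6 and 22.1 CPM in neuroblast-like cells (log2 difference 3.18 ± 0.14 (SE), edgeR adjusted p = 6.17e-17), and its partner Gabbr1 was higher by 1.06 ± 0.11. The chloride transporters differed in opposite directions. Slc12a5 (KCC2) had 527 UMIs in granule neuron-like cells, at 176 and 159 CPM, and 0 UMIs in the 627 and 678 neuroblast-like cells, which makes its level at least 561-fold higher against a floor of 3 UMIs over both libraries. Slc12a2 (NKCC1) stood at 10.3 and 12.2 CPM in granule neuron-like cells and 64.5 and 54.2 CPM in neuroblast-like cells (log2 difference -2.38 ± 0.26 (SE), edgeR adjusted p = 7.11e-09). It was the 1 gene of the 36 called lower in granule neuron-like cells.

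**Figure D4:**
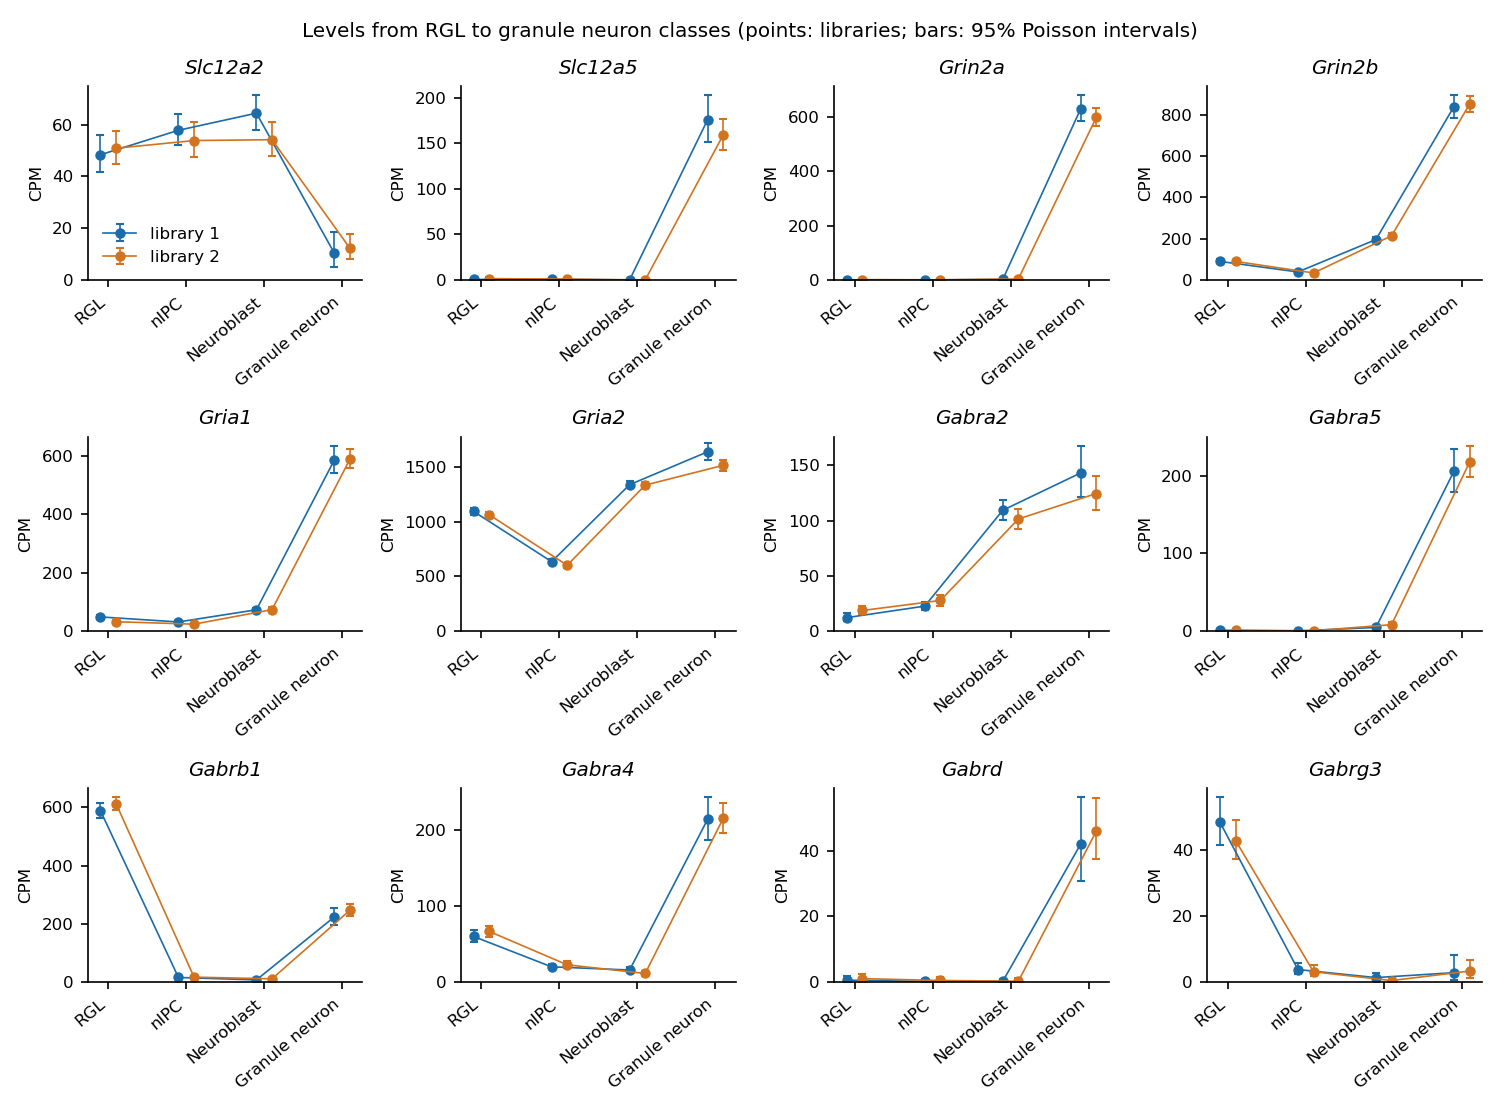
Levels (CPM, linear axes from 0) of 12 genes in RGL-like, nIPC-like, neuroblast-like and granule neuron-like cells, 1 line per library, with 95% Poisson intervals as bars. Slc12a5 is at 0 CPM in neuroblast-like cells and at 176 and 159 CPM in granule neuron-like cells, where Slc12a2 is at 10.3 and 12.2 CPM, and Gabrb1 and Gabrg3 are highest in RGL-like cells.

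From nIPC-like to neuroblast-like cells, the genes called higher spanned all the receptor families. Grin2b stood at 196 and 214 CPM in neuroblast-like and 38.6 and 33.7 CPM in nIPC-like cells (log2 difference 2.57 ± 0.12 (SE), edgeR adjusted p = 1.82e-15), and Grin1 at 24.7 and 24.1 CPM against 3.91 and 3.07 CPM (log2 difference 2.85 ± 0.27 (SE), edgeR adjusted p = 2.24e-09). Gria2 stood at 1341 and 1337 CPM against 635 and 602 CPM (log2 difference 1.20 ± 0.12 (SE), edgeR adjusted p = 1.38e-08), with Gria1 higher by 1.51 ± 0.17. Grm5 stood at 11.6 and 21 CPM against 0.489 and 1.31 CPM (log2 difference 4.27 ± 0.37 (SE), edgeR adjusted p = 5.85e-10), though its 95% intervals did not overlap between the libraries in neuroblast-like cells. Grin2a had 27 UMIs in neuroblast-like against 1 in nIPC-like cells, a ratio of 28.3 (95% interval 4.67 to 1159.6), and Gabra5 63 against 1, a ratio of 66.1 (95% interval 11.4 to 2651). Grm7 stood at 5.23 and 8.86 CPM against 1.14 and 0.657 CPM, higher by 2.93 ± 0.52 on the log2 scale.

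GABA-A genes were among those higher in neuroblast-like cells. Gabra2 stood at 109 and 101 CPM against 22.5 and 27.6 CPM (log2 difference 2.17 ± 0.15 (SE), edgeR adjusted p = 5.63e-12). Its levels did not overlap between the classes. The genes called lower were Grm3 (-2.21 ± 0.39), Gabrg3 (-1.83 ± 0.52), Gabrb1 (-0.77 ± 0.23) and Slc12a5. Slc12a5 had 8 UMIs in nIPC-like and 0 in neuroblast-like cells, at least 2.54-fold lower, and its call was lost without library 1 or without library 2 (edgeR adjusted p = 0.162 and 0.187). The call of Gabrb1 was lost with DESeq2 (adjusted p = 0.154) and without library 1 (edgeR adjusted p = 0.418), and that of Gabrg3 without library 2 (edgeR adjusted p = 0.148). Slc12a2 had 57.8 and 53.9 CPM in nIPC-like cells and did not pass (log2 difference 0.17 ± 0.15 (SE), edgeR adjusted p = 0.399), nor did Gabrd. With cluster 0 counted as neuroblast-like, 19 genes were higher, 17 of them the same, and 6 were lower. The higher call of Grin2d was lost without library 1 and also without library 2, and that of Grm2 without library 2.

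RGL-like cells differed from nIPC-like cells most in Gabrb1, a beta subunit. It stood at 588 and 613 CPM in RGL-like cells and 15.3 and 16.4 CPM in nIPC-like cells (log2 difference -5.39 ± 0.15 (SE), edgeR adjusted p = 1.21e-20). Gabrg3 stood at 48.4 and 42.9 CPM against 3.75 and 3.07 CPM (log2 difference -3.88 ± 0.26 (SE), edgeR adjusted p = 1.10e-12), and Gabra4 at 59.9 and 66.6 CPM against 19.9 and 22.6 CPM (log2 difference -1.75 ± 0.18 (SE), edgeR adjusted p = 2.95e-09). In RGL-like cells Gabrb1 held 98.8% and 98.4% of beta UMIs, Gabrg3 90.5% and 83.9% of gamma UMIs and Gabra4 82.4% and 76.6% of alpha UMIs. Gabbr1 was lower in nIPC-like cells, at 72.5 and 73.1 CPM against 211 and 247 CPM (log2 difference -1.81 ± 0.10 (SE), edgeR adjusted p = 1.88e-14).

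Of the 20 glutamate receptor genes tested, 9 were lower in nIPC-like than in RGL-like cells, 3 were higher and 8 did not pass. Over all genes tested, 29.5% were lower and 29.0% higher. Grm3 stood at 8.31 and 10.5 CPM against 65.0 and 73.4 CPM (log2 difference -3.05 ± 0.20 (SE), edgeR adjusted p = 1.58e-13) and Grm5 at 0.489 and 1.31 CPM against 9.09 and 10.5 CPM (log2 difference -3.63 ± 0.43 (SE), edgeR adjusted p = 2.98e-08). Grin2b stood at 38.6 and 33.7 CPM against 89.8 and 89.7 CPM (log2 difference -1.45 ± 0.12 (SE), edgeR adjusted p = 6.92e-11), and Gria2 at 635 and 602 CPM against 1096 and 1065 CPM (log2 difference -0.96 ± 0.12 (SE), edgeR adjusted p = 1.52e-07). The library values of these 4 genes did not overlap between the classes, which adds no support beyond the test. Gria3, Gria1, Grik5, Grin2c and Grin3a were lower too, with log2 differences of -1.96 ± 0.34, -0.68 ± 0.18, -0.71 ± 0.16, -1.33 ± 0.48 and -1.19 ± 0.48. The call of Grin3a was lost in a fit without the library block (edgeR adjusted p = 0.0521) and with DESeq2 (adjusted p = 0.0811), and that of Grin2c without library 1 and also without library 2. Gabra5 (7 UMIs in RGL-like against 1 in nIPC-like cells) rested on few UMIs and was lost without library 1, without library 2 and with DESeq2. Grin2a (7 against 1) and Gabrd (7 against 3) did not pass, and Slc12a2, at 48.4 and 50.9 CPM in RGL-like and 57.8 and 53.9 CPM in nIPC-like cells, and Slc12a5 did not pass either.

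The 7 genes called higher in nIPC-like than in RGL-like cells included Gabbr2, Gabra2, Gria4, Grm2 and Grm7, and 6 of the 7 calls were lost when cluster 0 took the other name. Gabbr2 stood at 6.03 and 7.01 CPM against 0.535 and 1.01 CPM (log2 difference 2.81 ± 0.44 (SE), edgeR adjusted p = 4.11e-06), and Gabra2 at 22.5 and 27.6 CPM against 12 and 18.5 CPM (log2 difference 0.52 ± 0.20 (SE), edgeR adjusted p = 0.0272). With cluster 0 counted as neuroblast-like, 1 of the 7 calls remained (Gria4) and the log2 differences became -0.80 for Gabbr2 and -2.30 for Gabra2. Grm7 had 10 UMIs in nIPC-like and 0 in RGL-like cells, at least 2.71-fold higher, and was lost without library 1 and also without library 2. Grm2 was lost without library 1, and Gabra2 without library 1, without library 2 and with DESeq2 (adjusted p = 0.141). The clusters themselves differed. Gabra2 stood at 32.5 and 43.0 CPM in cluster 0 and 3.32 and 3.89 CPM in cluster 16. Gabra4 stood at 6.45 and 6.87 CPM in cluster 0 against 45.6 and 46.7 CPM in cluster 16, Gabrb1 at 5.21 and 5.78 CPM against 34.6 and 32.8 CPM, and Gria2 at 799 and 767 CPM against 321 and 348 CPM. Cluster 16, led by Ccnd2 and Hells, thus had higher levels of Gabra4 and Gabrb1 than cluster 0, and lower levels of Gabra2. These 2 clusters were described and not tested. With cluster 0 counted as neuroblast-like, 14 genes were lower in nIPC-like than in RGL-like cells, and 11 of these were among the 15.

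Astrocyte-like cells shared several subunits with RGL-like cells, of which they are close relatives, and differed in others. Gabrb1 stood at 523 and 509.8 CPM in astrocyte-like cells against 588 and 613 CPM, with a log2 difference of 0.09 ± 0.11 that did not pass and was -0.22 with total-count scaling, so its direction depended on the scaling. Gabra4 had -0.24 ± 0.16, and Gria3 -0.56 ± 0.30. Neither passed here, but both were called lower with total-count scaling (-0.55 and -0.87, edgeR adjusted p = 0.00637 and 0.0209). Grin2c (GluN2C), the NMDA subunit known from astrocytes and cerebellar granule cells, stood at 232 and 222 CPM against 3.48 and 3.42 CPM (log2 difference 6.34 ± 0.20 (SE), edgeR adjusted p = 5.05e-19). Gabrg1 stood at 127 and 142 CPM against 4.28 and 7.44 CPM (log2 difference 4.79 ± 0.20 (SE), edgeR adjusted p = 9.05e-17), and Gabrg3 in the other direction at 4.55 and 3.86 CPM against 48.4 and 42.9 CPM (log2 difference -3.12 ± 0.26 (SE), edgeR adjusted p = 1.64e-10). The make-up of the gamma UMIs differed between these classes, with Gabrg1 at 96.0% and 97.0% of gamma UMIs in astrocyte-like cells and Gabrg3 at 90.5% and 83.9% in RGL-like cells. Gabra2 was higher in astrocyte-like cells, at 61.9 and 84.9 CPM against 12 and 18.5 CPM (log2 difference 2.54 ± 0.17 (SE), edgeR adjusted p = 1.87e-12), as was Gabbr2, at 16.8 and 20.7 CPM against 0.535 and 1.01 CPM (log2 difference 4.80 ± 0.34 (SE), edgeR adjusted p = 4.39e-12).

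Of the glutamate receptor genes, Grm3, which couples to Gi and is the main group II receptor of astrocytes, stood at 175 and 199.8 CPM in astrocyte-like and 65.0 and 73.4 CPM in RGL-like cells (log2 difference 1.74 ± 0.14 (SE), edgeR adjusted p = 3.18e-11). Grm5 was higher by 1.73 ± 0.21 and the GluN3A gene Grin3a by 3.65 ± 0.27, and Grik1 had 26 UMIs against 1, a ratio of 22.1 (95% interval 3.63 to 907). Gria1 was lower, at 5.14 and 4.25 CPM against 48.1 and 31.6 CPM (log2 difference -2.75 ± 0.26 (SE), edgeR adjusted p = 1.17e-09), and Grin2b was lower as well (log2 difference -0.91 ± 0.12). Slc12a2 was lower at 16.8 and 28.2 CPM against 48.4 and 50.9 CPM (log2 difference -0.83 ± 0.17 (SE), edgeR adjusted p = 2.95e-04), a call that was lost without library 1 (-0.50, edgeR adjusted p = 0.159). Gria2 was called higher (log2 difference 0.34 ± 0.12 (SE), edgeR adjusted p = 0.0313), yet its 1025 and 1178 CPM in astrocyte-like cells and 1096 and 1065 CPM in RGL-like cells overlapped, and the difference was 0.03 with total-count scaling. The call of Gabbr1 (0.38 ± 0.10) was likewise lost with that scaling (0.07), and also with a mitochondrial limit of 10% (0.21, edgeR adjusted p = 0.134) and with doublets kept (0.10). The median mitochondrial share was 10.04% and 11.01% in astrocyte-like against 6.81% and 7.88% in RGL-like cells, and its part in the other calls was tested only by that limit. The call of Grik1 was lost without library 2 (edgeR adjusted p = 0.0624). Grin2a, Gabrd and Slc12a5 were under 2 CPM in both classes and did not pass.

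OPC-like cells had the highest level of 7 of the genes in both libraries (Gria3, Gria4, Grik1, Grik3, Grik4, Grin3a and Gabra3). Most of these were low in oligodendrocyte-like cells. Gria2 and Grm5, also given here, were not among the 7. Gria2 stood at 1507 and 1637 CPM in OPC-like and 23.1 and 22.1 CPM in oligodendrocyte-like cells (log2 difference -5.20 ± 0.15 (SE), edgeR adjusted p = 1.92e-20), and Gria3 at 390.4 and 348 CPM against 0.420 and 0.379 CPM (log2 difference -8.83 ± 0.34 (SE), edgeR adjusted p = 3.06e-18). Grm5 stood at 242 and 203 CPM against 0.700 and 0.505 CPM (log2 difference -7.53 ± 0.34 (SE), edgeR adjusted p = 1.29e-16), and Grin3a at 216 and 176 CPM against 0.560 and 1.52 CPM (log2 difference -6.54 ± 0.39 (SE), edgeR adjusted p = 4.21e-14). No value overlapped between the classes for these 4 genes. Grik4 was lower in oligodendrocyte-like cells (log2 difference -4.95 ± 0.56), as were Grik3 (-5.46 ± 0.71) and Grik1 (-2.12 ± 0.42). Grik2 was an exception among the kainate genes (-0.05 ± 0.29, not past, but called lower at -0.97 with total-count scaling and at -0.83 with the mixed OPC and COP cluster taken whole), and was highest in COP-like cells at 137 and 78.9 CPM. Gria4 had a log2 difference of -0.96 ± 0.19 and held 61.7% and 67.1% of AMPA UMIs in oligodendrocyte-like cells, against 6.86% and 7.82% in OPC-like cells. Grin2a and Grin2b did not pass, and Grin2b stood at 4.24 and 2.23 CPM in OPC-like cells.

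Of the 14 GABA receptor genes tested, 11 were lower in oligodendrocyte-like than in OPC-like cells, 1 was higher and 2 did not pass. Over all genes tested, 19.8% were lower and 23.3% higher. Gabbr2 stood at 63.7 and 71.4 CPM in OPC-like cells against 0.280 and 0.253 CPM (log2 difference -6.96 ± 0.48 (SE), edgeR adjusted p = 1.25e-12). Several alpha, beta and gamma genes rested on few UMIs in the 25 and 56 OPC-like cells. Gabrb2 had 9 UMIs there against 0 in oligodendrocyte-like cells (at least 66.1-fold lower by CPM, against a floor of 3 UMIs). Gabra4 had 15 against 3, a ratio of 110.2 (95% interval 31.2 to 594), and Gabrg3 8 against 1, a ratio of 176 (95% interval 23.6 to 7822). This fold and these ratios compare CPM without TMM, unlike the log2 differences, and the fold leaves out the counting error of the 9 UMIs. Gabrd, with 4 UMIs in oligodendrocyte-like and 0 in OPC-like cells, did not pass. Gabra3, which was at or under 2 CPM in every other named class, stood at 25.5 and 42.4 CPM in OPC-like cells and held 25% and 54.3% of alpha UMIs there (95% intervals 9.77 to 46.7% and 36.6 to 71.2%). Without library 2 the lost calls included those of Gabra2, Gabrg3, Gria1, Grik1, Grin1, Grin2d and Slc12a5. That of Slc12a5 was lost without library 1 as well (edgeR adjusted p = 0.140). With the mixed OPC and COP cluster taken whole, Gabra2 and Grik1 were lost, and 23 genes were lower.

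Of the 3 genes called higher in oligodendrocyte-like cells, Slc12a2 stood at 1074 and 1125 CPM against 97.6 and 98.2 CPM in OPC-like cells (log2 difference 4.42 ± 0.19 (SE), edgeR adjusted p = 3.34e-17). Its level in COP-like cells, 189.9 and 285 CPM, lay between these. Grm3 had 740 UMIs in oligodendrocyte-like and 3 in OPC-like cells, a ratio of 11.2 (95% interval 3.82 to 54.4), and held 88.7% and 84.6% of metabotropic UMIs in oligodendrocyte-like cells. Gabbr1 was called higher (0.61 ± 0.14), although its CPM was lower, at 183 and 188 CPM against 229 and 232 CPM, and its difference with total-count scaling was -0.31 (edgeR adjusted p = 0.0683). Its direction depended on the scaling.

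Some genes were present outside these 8 classes, and are described without a test. Cajal-Retzius-like cells, which are early-born neurons of the hippocampal surface, had Gria4 at 102 and 101 CPM and Gabrg3 at 35.7 and 22.4 CPM. In these cells Slc12a5 stood at 0.831 and 2.13 CPM, far below its granule neuron-like level. Slc12a2 stood at 264 and 295 CPM in pericyte-like cells and at 158 and 177 CPM in microglia-like cells. In choroid plexus-like cells Slc12a2 stood at 143 and 604 CPM, from 29 and 336 cells, with 95% intervals that lay apart. The class joined 2 clusters in unequal parts, since cluster 3 had 28 and 228 cells and cluster 31, with a median of 43886 UMIs, had 1 and 108. Within cluster 3 Slc12a2 stood at 109.7 and 119 CPM, with intervals that overlapped, and in the 108 cells of cluster 31 at 768 CPM. Pericyte-like cells also had Grm3 at 42.5 and 34.3 CPM and Grm7 at 20.5 and 16.2 CPM. Fibroblast-like cells had Gria3 at 68.8 and 110.1 CPM. Grm8, a receptor that couples to Gi, had 51 of its UMIs in the choroid plexus-like cells of library 2, at 7.57 CPM, of which 46 were in cluster 31. Library 1 had 0 in 265458 UMIs of this class, a count that allows up to 11.3 CPM, so no difference was detectable at this depth.

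The levels of a gene in the 2 libraries were compared within each class by whether their 95% Poisson intervals lay apart. This was so for 0 of 28 genes with enough UMIs in granule neuron-like cells (3.09% of all genes), 0 of 21 in nIPC-like cells (4.11%), 1 of 25 in neuroblast-like cells (5.25%; Grm5) and 2 of 19 in RGL-like cells (6.39%; Gria1 and Gabbr1). In OPC-like cells it was 1 of 18 (2.52%; Gria1) and in oligodendrocyte-like cells 2 of 12 (10.5%; Grm3 and Slc12a2). Astrocyte-like cells had 7 of 21 (8.12%) and microglia-like cells 7 of 20 (13.7%). In astrocyte-like cells these included Gria2, Gria3, Grm3, Gabra2, Gabbr1 and Slc12a2, and 6 of the 7 were higher in library 2. Counts in the other classes were 2 of 10 in COP-like (6.83%; Grik2 and Slc12a2), 0 of 16 in Cajal-Retzius-like (2.56%), 0 of 16 in cycling (4.37%), 2 of 9 in endothelial-like (15.6%; Gria2 and Gabrb1) and 2 of 8 in choroid plexus-like cells (17.4%; Gria2 and Slc12a2). They were 0 of 6 in pericyte-like (6.45%), 0 of 4 in vascular smooth muscle-like (5.14%), 0 of 3 in border macrophage-like (4.79%), 1 of 5 in erythroid-like (9.78%; Gabrb1) and 1 of 2 in fibroblast-like cells (6.09%; Gria2). The intervals cover counting error only, and genotype, mice and library cannot be told apart in such differences.

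Lists of genes that work with these receptors were counted in the same way. The lists were chosen with earlier results of these data known, so their counts are not independent support. In granule neuron-like against neuroblast-like cells, 25.6% and 28.0% of all genes were higher and lower. Of 33 partners of AMPA, kainate and NMDA receptors, 21 were higher and 5 lower there (median log2 difference 1.18, against -0.12 over all genes). They included Camk2b (1022 and 931 CPM against 115 and 123 CPM, log2 difference 3.02 ± 0.11), a kinase subunit of the postsynaptic density, and the scaffold Dlg2 (4.42 ± 0.21). The AMPA auxiliary subunit Shisa9 (CKAMP44) differed by 6.67 ± 0.33 and the scaffold partner Dlgap1 by 2.93 ± 0.13. Of 14 partners of GABA receptors, 8 were higher and 2 lower (median 1.20), among them the GABA-B auxiliary subunit Kctd16 (4.73 ± 0.22). Of 8 genes of chloride transport and its kinases, 1 was higher (Stk39, 1.16 ± 0.23) and 5 lower, including Oxsr1 (-2.23 ± 0.32), Wnk1 (-0.81 ± 0.14) and Wnk3 (-0.79 ± 0.21), with a median of -0.73. From nIPC-like to neuroblast-like cells, where 15.7% and 17.2% of all genes were higher and lower, the 33 partners of glutamate receptors had 12 higher and 2 lower (median 0.43), the 14 partners of GABA receptors 3 and 2 (median 0.06) and the 8 chloride genes 2 and 1 (median -0.02).

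The partner lists were also counted in the other comparisons. From RGL-like to nIPC-like cells the glutamate receptor partners had 10 higher and 10 lower of 33, close to the 29.0% and 29.5% of all genes. They included Cnih2 (2.69 ± 0.16) and the transmembrane AMPA regulator Cacng5 (-2.56 ± 0.18), and the GABA receptor partners had 3 higher and 6 lower of 14. The chloride list had 2 higher and 1 lower of 8, the latter Slc12a4 (KCC1, -2.78 ± 0.18). In astrocyte-like against RGL-like cells, where 18.6% and 18.5% of all genes were higher and lower, the lists had 4 higher and 7 lower (Cacng5, -5.71 ± 0.30), 2 higher and 4 lower (Gphn, the scaffold gephyrin, 1.54 ± 0.13), and 3 higher and 0 lower. In oligodendrocyte-like against OPC-like cells, where the shares over all genes were 23.3% and 19.8%, they had 3 higher and 22 lower (Dlgap1, -6.13 ± 0.25), 3 higher and 8 lower (Plcl1, 4.43 ± 0.20, and Nlgn2, -3.14 ± 0.20), and 3 higher and 4 lower. The kinases Wnk1 (2.41 ± 0.14) and Stk39 (3.11 ± 0.22) were higher there, as was Slc12a2, while Wnk3 and another kinase of the list were called lower. Of 8 related subunits outside the symbol rule 3 were tested. Grid1, a delta-type relative of the glutamate receptors, was lower in nIPC-like than in RGL-like cells (-2.94 ± 0.42) and higher in granule neuron-like than in neuroblast-like cells (2.13 ± 0.33).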

How the data were processed

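The authors deposited one unfiltered matrix of raw, not normalized UMI counts, with 32285 genes in rows and 13589760 barcodes in columns. Per the submitters' processing notes, Cell Ranger 4.0.0, Scanpy 1.7.0 and the build mm10 were used. Which barcode suffix belongs to which genotype is not given in those sources. The genes and gene lists were chosen with earlier results of these data known.

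From the deposited counts, barcodes with at least 1000 UMIs, 500 genes and at most 20% mitochondrial UMIs were kept (8255 and 8381). Scrublet (expected rate 0.06) removed 230 (2.79%) and 260 (3.10%) as doublets. Cells were clustered with scanpy 1.11.5 (Python 3.11.15) on 2974 variable genes, 40 principal components, 15 neighbours and Leiden resolution 1, leaving out the 41 genes, the 63 listed partner genes, mitochondrial genes and sex-linked genes. Of 32 clusters, 29 were named, each by 3 or more markers that 25% or more of its cells held and a marker score of 1 or more. A shallow cluster with no marker of its class among its 10 leading genes stayed unnamed, as did one with more markers of another class there. The markers were fixed first and the scoring rule was set after the data were seen. Cells without a name were 229 (2.85%) and 220 (2.71%).

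UMIs were summed per library and class (235634 to 7916475 UMIs per sum in the neural classes) and scaled to CPM, with 95% intervals from the exact Poisson distribution. Shares have Clopper-Pearson 95% intervals, and both cover counting error only. Ratios and least folds of low-count genes were taken from CPM over both libraries, without TMM. The least folds leave out the counting error of the higher class. A class needed at least 20 cells per library. The 16 sums of 8 neural classes entered one edgeR 4.0.16 quasi-likelihood fit (R 4.3.3; TMM, filterByExpr, class and library as terms, 7 residual degrees of freedom), with Benjamini-Hochberg adjustment over 14847 genes and a threshold of 0.05. Both classes of a comparison came from the same library, so library was a block by design. Named genes were up to 8 with the smallest adjusted p, up to 4 more with the largest fold, and a fixed set in each comparison that included Gria2, Grin2a, Grin2b, Gabra2, Gabrd, Slc12a2 and Slc12a5, and up to 4 per partner list. Other genes of the 41 are given by group. Results of single genes among these and the partners are in some cases not reported here, while counts and sums include them. Alternatives were DESeq2 1.42.0, other scaling, filters, clusterings and class names, free RNA subtracted, and each library left out. Gene positions are from GENCODE M21 and promoter sequences from RefSeq. Genotypes were not compared, since neither suffix was mapped.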

Additional observations from a re-analysis of the deposited data

How the results depend on the processing

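Of the 112 calls of single genes in the 5 comparisons, all 112 held with free RNA subtracted, with a minimum of 2000 UMIs and with no filter on low counts. DESeq2 kept 108, a mitochondrial limit of 10% 109, Leiden resolution 2 110, shallow clusters left out (chosen after seeing the data) 111, and total-count scaling 108. Fits of only the 2 classes compared tested 99 of the 112, and all 99 held. With doublets kept 71 held, 11 were lost and 3 reversed, and with cluster 0 counted as neuroblast-like 59 held, 9 were lost and 2 reversed, of the comparisons each could be run on. Without library 1, 100 held, and without library 2, 91. The fit with no replicate block (the library block left out) kept 110 and gave 6 higher and 14 lower genes for nIPC-like against RGL-like cells, where 7 and 15 were called with the block, and moved no other count of calls. The losses were Grin3a (-1.20) and Gabra2 (0.51).

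For nIPC-like against RGL-like cells the 7 genes called higher became 1 with doublets kept and 1 with cluster 0 counted as neuroblast-like (chosen after seeing the data), and 4 to 5 with a library left out. The clustering with doublets kept was a new one, in which 607 of the 616 cells of cluster 0 were named neuroblast-like, so both alternatives moved the same cells. At resolution 2, 151 of the 616 were. The 4 genes called lower in neuroblast-like against nIPC-like cells became 6 with doublets kept, 6 with cluster 0 counted as neuroblast-like and 2 to 3 with a library left out. The 1 gene called lower in granule neuron-like against neuroblast-like cells became 2 with doublets kept and 2 with cluster 0 counted as neuroblast-like. The 4 genes called lower in astrocyte-like against RGL-like cells became 6 with total-count scaling, and the 3 called higher in oligodendrocyte-like against OPC-like cells became 2. Without library 2, 16 genes were lower in the latter comparison instead of 24, and 23 without library 1. A fit of only those classes, which tested fewer genes, called 18 lower.

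Reversed values for nIPC-like against RGL-like cells were Gabbr2 (-0.42 with doublets kept, -0.80 with cluster 0 counted as neuroblast-like), Gabra2 (-2.46, -2.30, and -0.17 at resolution 2) and Grik2 (not called at 0.30, called at -0.75 with doublets kept and -0.82 with that cluster renamed). Gabrg1 in neuroblast-like against nIPC-like cells was not called at -0.14 and was called higher at 2.30 with doublets kept and 2.63 with cluster 0 counted as neuroblast-like. For oligodendrocyte-like against OPC-like cells Gabbr1 reversed (-0.31 with total-count scaling). The cause was not tested. Leaving out a library dropped its sums of both classes compared, so the lone sum of a class was assumed to vary like the other classes. With doublets kept no OPC-like class was found, so that comparison had no value. The 25 and 49 cells of the OPC-like and granule neuron-like classes in library 1 limit the precision of their low-count genes.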

Other observations

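Cluster 5, with 37 and 77 cells and a median of 1907 UMIs, stayed unnamed because it was both shallow and without a marker among its 10 leading genes. It is outside every comparison above. The 41 genes summed to 4000 and 3906 CPM in it, between the granule neuron-like and neuroblast-like levels. Gria2 stood at 2727 and 1857 CPM, Grin2b at 273 and 394 CPM, Gabra2 at 152 and 144 CPM and Slc12a5 at 0 and 24.1 CPM. Gria2 and Grin2b were among its 10 leading genes, so genes of the 41 entered the rule that left it unnamed.

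Erythroid-like cells had Gria2 at 116 and 80.8 CPM and Gabrb1 at 33.3 and 2.13 CPM, from 80 and 32 cells, where the estimated share of free RNA was 0.299% and 0.874%. Summed neuroblast markers stood at 725 and 568 CPM in these cells, microglia markers at 11046 and 6002 CPM and endothelial markers at 2134 and 4243 CPM. Their part in these levels was not tested.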
